A study of Mus musculus with 4 samples.

Results

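The enzymes and carriers that take up glucose, split it to pyruvate and pass the product on as lactate or into the mitochondrion were compared between differentiating mouse erythroleukemia cells and differentiating erythroid progenitors grown from embryonic stem cells. The list named 39 genes, and a gene was taken as measured where the array had a feature annotated to it and to no other gene. That held for 35 of the 39, with 42 features among them, out of 19938 genes on 28944 tested features in all. Gpi1, Pfkfb1, Gapdh and Eno1 had no feature of their own and were not analysed here. RNA of 4 cultures was measured on a single-colour array, the Affymetrix GeneChip Mouse Gene 1.0 ST, and the values are log2 expression values made by RMA, a robust average over the probes of a feature.

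The first group was MEL, a mouse erythroleukemia line, in 2 cultures (A and B) grown in DMEM with serum and puromycin and induced with 17b-estradiol for 48 hours. The second was ES-EP, erythroid progenitor cells derived from embryonic stem cells, also in cultures A and B. They were expanded in StemPro34 with Epogen, hIGF-1, dexamethasone and SCF, and differentiated for 24 hours in StemPro34 with Epogen, insulin and mifepristone. No allele or transgene is given in the labels, nor is what lets MEL cells respond to estradiol or resist puromycin. All 4 cultures are labelled as differentiating. Cell line, medium, inducer and hours differ together between the groups and cannot be told apart, and no undifferentiated culture was analysed here.

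Glycolysis turns glucose into pyruvate in the cytosol and yields ATP without oxygen. Most of its steps are catalysed by any of several isozymes, encoded by separate genes that differ between tissues in their regulation. Pyruvate is then reduced to lactate and exported, or enters the mitochondrion and is oxidised by pyruvate dehydrogenase, which the pyruvate dehydrogenase kinases switch off. Mature red cells have no mitochondria and depend on glycolysis for their ATP.

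The arrays carried erythroid RNA by their marker genes. The 9 measured erythroid markers, Gata1, Klf1, Epor and Alas2 among them, ranged by their means between 7.04 and 12.42 in MEL cells, against 9.59 and 13.22 in ES-EP cells. Of these 9, 2 passed as higher in MEL and 7 as lower by the test described below, against 21.8% and 36.9% of all genes. Slc4a1, the anion exchanger of red cells, was the lowest in MEL, with a mean of 7.04 in MEL against 12.48 in ES-EP cells. The 8 myeloid markers had means of at most 6.37 in MEL and 7.23 in ES-EP cells. Of these 8, 0 passed as higher and 3 as lower, the latter close to the share of all genes. The highest means were 5.80 in MEL and 6.06 in ES-EP cells among 5 lymphoid markers, 5.31 in MEL and 5.88 in ES-EP cells among 5 pluripotency markers, and 6.70 in MEL and 6.98 in ES-EP cells among 6 stromal markers. By the same test 0 lymphoid markers passed as higher and 4 as lower, 2 and 2 pluripotency markers, and 1 and 3 stromal markers. The part of maturation stage or of other cells in the results was not tested. The median of all tested feature means was 5.91. Of these 24 markers of other cell types, Cd68 in ES-EP cells had the highest mean. Over all genes MEL minus ES-EP had a median of -0.14 (log2), and that median was 0.017 after cyclic loess.

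Most genes of glucose breakdown had higher RNA levels in MEL than in ES-EP cells. A gene passed at an adjusted p under 0.05 (limma, Benjamini-Hochberg over all 28944 features), and 23 of the 35 measured genes passed as higher in MEL and 3 as lower, while 9 did not pass. The background was 21.8% of all genes higher and 36.9% lower. At 2-fold or more, 14 of the 35 passed as higher, against 7.38% of all genes, and 0 as lower, against 4.93% of all genes (limma, and 0 also at an unadjusted p under 0.05). The median difference over the 35 genes was 0.52 on the log2 scale and 0.66 relative to that of all genes. The 14 were Slc2a3, Slc2a6, Hk2, Pfkl, Pfkfb3, Aldoc, Tpi1, Pgk1, Pgam1, Eno2, Pkm, Slc16a3, Pdk3 and Pdhb, at least 1 gene of each measured step other than lactate dehydrogenase. Pkm reached 2-fold only on the brighter of its 2 features, annotated through 2 accessions. It was 1.92-fold higher on the other, annotated through 8. The list was drawn up with earlier results of these arrays known, so the counts describe it and do not test it. In RNA of whole cultures, fewer cells with a transcript and less of it per cell cannot be told apart.

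**Figure D1:**
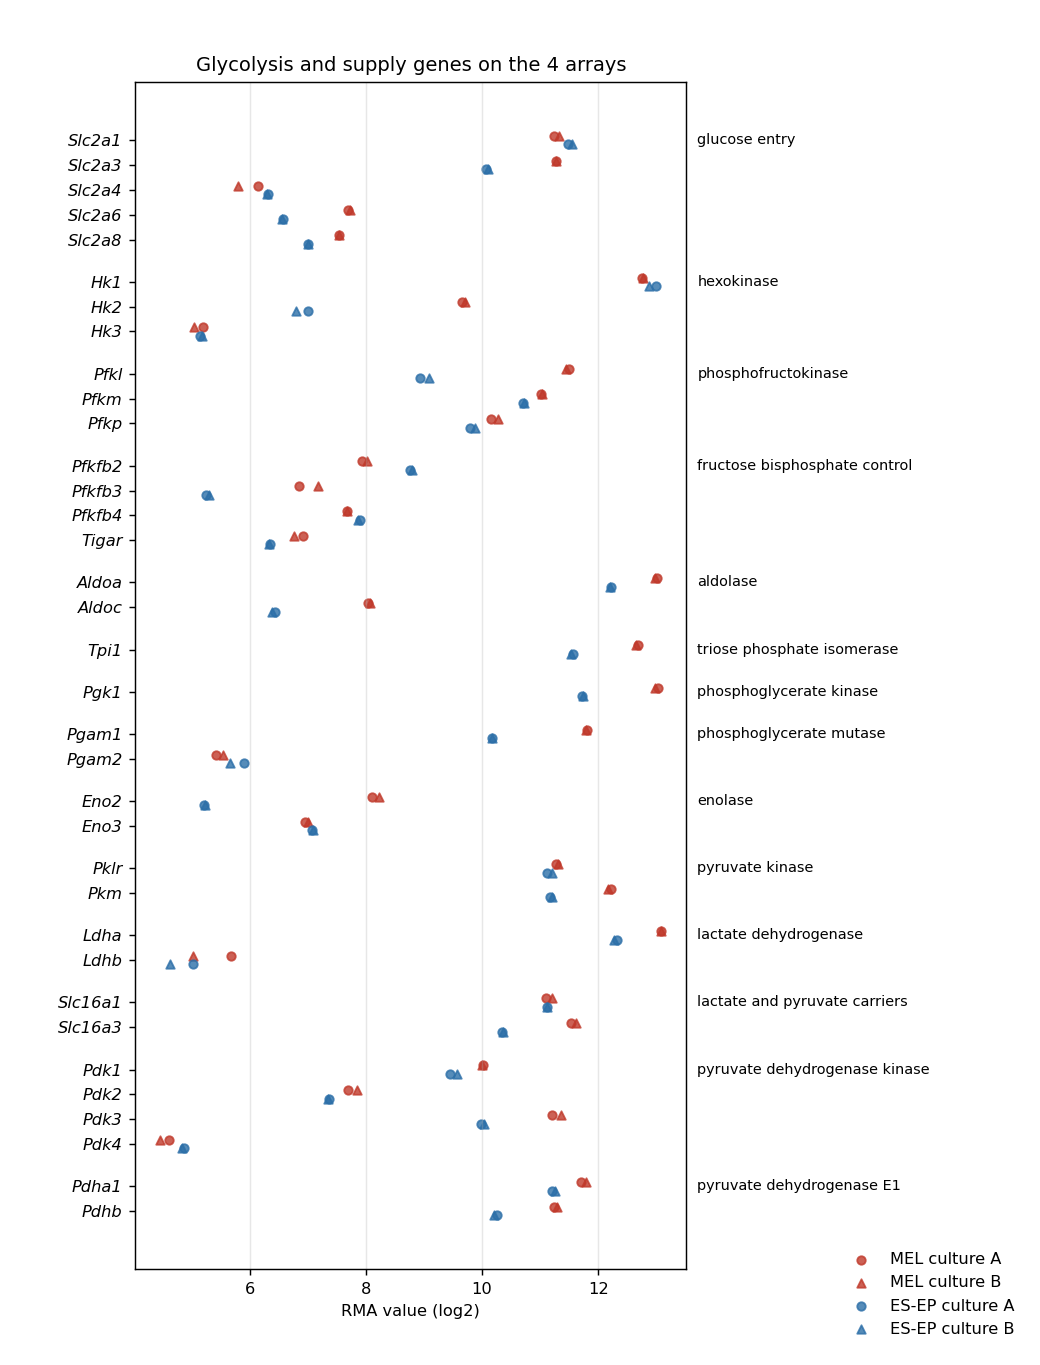
RMA values (log2, horizontal axis) of the 35 measured genes in MEL cultures A and B (red, upper points) and ES-EP cultures A and B (blue, lower points), 1 point per array, ordered by step of the pathway. For most genes the 2 cultures of a group lie close together (Ldhb in MEL is the widest apart), and Hk2, Pfkl and Eno2 show the widest gaps between the groups. Positions are to be compared within a gene only, since probes of different genes differ in brightness.

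The promoters of 5 genes are shown because they pair a carrier whose level was higher in MEL with its neighbour in the pathway that did not pass, and add 3 further genes that were higher. Slc16a3 and Slc16a1 encode the lactate carriers MCT4 and MCT1, and Hk2, Eno2 and Pgk1 encode a hexokinase, an enolase and the phosphoglycerate kinase. Each run holds 250 bases before and 50 after the transcription start (RefSeq, GRCm38.p6, 5′ to 3′ on the strand of the gene). Capitals mark ACGTG or GCGTG on either strand, the core to which hypoxia-inducible factors are known to bind. ACGTG also lies inside the E-box CACGTG, which MYC and its relatives bind.

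Slc16a3 (chr11:120948817-120949116, plus strand): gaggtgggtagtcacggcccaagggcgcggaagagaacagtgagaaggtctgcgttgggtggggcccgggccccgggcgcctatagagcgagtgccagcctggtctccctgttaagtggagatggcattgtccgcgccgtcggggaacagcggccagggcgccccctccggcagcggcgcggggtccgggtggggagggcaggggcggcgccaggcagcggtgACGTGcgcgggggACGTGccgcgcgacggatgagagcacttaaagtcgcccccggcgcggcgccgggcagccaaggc

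Slc16a1 (chr3:104638414-104638713, plus strand): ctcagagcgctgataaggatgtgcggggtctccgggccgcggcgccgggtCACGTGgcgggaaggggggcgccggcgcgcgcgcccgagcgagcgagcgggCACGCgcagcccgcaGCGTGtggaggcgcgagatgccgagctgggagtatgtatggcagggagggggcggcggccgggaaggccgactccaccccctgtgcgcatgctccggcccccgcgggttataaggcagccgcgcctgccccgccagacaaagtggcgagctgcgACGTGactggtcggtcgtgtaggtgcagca

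Hk2 (chr6:82774405-82774704, minus strand): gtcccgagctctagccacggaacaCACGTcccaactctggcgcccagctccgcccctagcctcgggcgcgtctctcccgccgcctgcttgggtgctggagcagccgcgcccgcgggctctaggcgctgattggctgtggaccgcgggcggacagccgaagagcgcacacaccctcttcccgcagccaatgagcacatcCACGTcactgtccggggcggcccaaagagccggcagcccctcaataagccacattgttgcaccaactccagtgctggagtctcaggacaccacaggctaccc

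Eno2 (chr6:124769624-124769923, minus strand): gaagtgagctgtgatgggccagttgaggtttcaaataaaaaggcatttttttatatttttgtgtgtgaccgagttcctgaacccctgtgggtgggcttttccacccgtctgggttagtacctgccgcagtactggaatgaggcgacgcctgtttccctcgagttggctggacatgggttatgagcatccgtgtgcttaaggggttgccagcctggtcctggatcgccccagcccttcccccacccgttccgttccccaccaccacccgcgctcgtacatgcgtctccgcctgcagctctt

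Pgk1 (chrX:106186850-106187149, plus strand): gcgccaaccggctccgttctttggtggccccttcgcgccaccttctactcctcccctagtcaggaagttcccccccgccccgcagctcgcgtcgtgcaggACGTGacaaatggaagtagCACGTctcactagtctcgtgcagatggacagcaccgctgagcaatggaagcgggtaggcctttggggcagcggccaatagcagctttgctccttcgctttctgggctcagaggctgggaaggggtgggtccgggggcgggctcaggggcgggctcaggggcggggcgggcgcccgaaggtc

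The core was found in the Slc16a3 window (2 matches), the Slc16a1 window (5, in 4 stretches, since CACGTG reads as a match on both strands), the Hk2 window (2) and the Pgk1 window (2), and the Eno2 window had 0 matches. RefSeq windows were at hand for 33 of the 35 measured genes, and 28 of the 33 (84.8%) held the core in at least 1 window, against 46.7% of 27025 genes. Some genes have several windows, and by window the shares were 75.0% of 48 against 43.8% of 32851. Base composition differed as well, with a median of 60.8% G or C in the 48 windows of these genes against 52.7% in all 32851 windows. Among windows with at least 60% G or C, 23 of 25 windows of these genes held the core (92.0%), against 69.2% of 9690 windows. The core was in 11 of the 13 genes with a window that were at least 2-fold higher in MEL (84.6%) and in 17 of the 20 others (85.0%). The E-box was in 6 of the 48 windows (12.5%), against 7.15% of all windows. These matches describe letters in the sequence, and binding was not measured.

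At the first step, the carriers that bring glucose across membranes, Slc2a3 and Slc2a6 rose and Slc2a1 did not. Slc2a3, which encodes the high-affinity carrier GLUT3, had values of 11.28 and 11.27 in MEL cultures A and B, against 10.07 and 10.10 in ES-EP cultures A and B. Both MEL values lay above both ES-EP values, a log2 difference of 1.19 with an SE of 0.08 (2 arrays in each group, as for all differences here), or 2.29-fold (adjusted p = 2.00e-05). Slc2a6, a carrier of lysosomal membranes, had values of 7.70 and 7.73 in MEL, against 6.57 and 6.55 in ES-EP cells, again without overlap (1.15 ± 0.08, 2.23-fold, adjusted p = 2.42e-05). Slc2a8, an intracellular hexose carrier, was higher by 0.54 ± 0.08 (adjusted p = 0.00110). Slc2a1 encodes GLUT1, the main glucose carrier of many proliferating cells. It had values of 11.24 and 11.33 in MEL, against 11.47 and 11.55 in ES-EP cells. Its difference of -0.23 (95% interval -0.43 to -0.03) just missed the threshold (adjusted p = 0.0557). It passed as lower with an intensity trend in the prior and with dim features left out. Slc2a4, the insulin-regulated carrier of muscle and fat, lay near the median of all features, at 6.15 and 5.80 in MEL, against 6.32 and 6.30 in ES-EP cells. It did not pass (-0.33, adjusted p = 0.0522), and passed as lower in 7 of 14 alternative settings.

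Hexokinase traps glucose in the cell as glucose 6-phosphate, and its inducible isozyme stood apart. Hk2, which encodes the isozyme found on mitochondria of growing cells and of muscle, had values of 9.650 and 9.702 in MEL, against 6.999 and 6.807 in ES-EP cells. The gap was far wider than that between cultures, 2.77 ± 0.10 on the log2 scale or 6.84-fold (adjusted p = 8.10e-07). Hk1, the hexokinase of most tissues and of red cells, has 2 features. The brighter lay at 12.76 and 12.77 in MEL, against 12.99 and 12.88 in ES-EP cells (-0.17, 95% interval -0.37 to 0.03, adjusted p = 0.127), and passed as lower with an intensity trend in the prior (limma, adjusted p = 0.00229). It is annotated through 1 accession that features of a ribosomal protein gene also carry. The other Hk1 feature, with 8 accessions, lay at 10.96 and 11.06 in MEL, against 10.93 and 10.97 in ES-EP cells, and did not pass either (0.06, 95% interval -0.14 to 0.26, adjusted p = 0.592). Hk3, a hexokinase of myeloid cells, was dim, and its values overlapped (5.20 and 5.04 in MEL, 5.14 and 5.18 in ES-EP cells, adjusted p = 0.749).

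Phosphofructokinase commits the sugar to glycolysis, and its 3 genes were all higher in MEL by unequal amounts. Pfkl, the liver-type subunit, which red cells also contain, had values of 11.49 and 11.45 in MEL, against 8.93 and 9.08 in ES-EP cells, 5.50-fold higher in MEL (2.46 ± 0.09, adjusted p = 1.07e-06). Pfkm, the muscle-type subunit, had values of 11.01 and 11.03 in MEL, against 10.70 and 10.72 in ES-EP cells (0.31 ± 0.08, adjusted p = 0.0135). Pfkp, the platelet-type subunit, was higher by 0.39 ± 0.09 (adjusted p = 0.00805). With 1 culture fewer some of these calls were lost while the differences stayed about as large. The Pfkm difference was 0.30 without ES-EP culture A (limma, adjusted p = 0.0943) and 0.32 without ES-EP culture B (adjusted p = 0.0804). The Pfkp difference was 0.35 without ES-EP culture A (limma, adjusted p = 0.0656).

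The level of fructose 2,6-bisphosphate, the strongest activator of phosphofructokinase, is set by bifunctional enzymes, and their genes moved in opposite directions. Pfkfb3, whose product has by far the more active kinase side and makes the activator, had values of 6.85 and 7.18 in MEL, against 5.24 and 5.30 in ES-EP cells. It was 3.35-fold higher in MEL (1.74 ± 0.12, adjusted p = 2.16e-05), with the 2 MEL cultures further apart than for most members. Its ES-EP values lay under the median of all features. Pfkfb2, the heart-type enzyme, had values of 7.93 and 8.02 in MEL, against 8.77 and 8.79 in ES-EP cells, and was 1.75-fold lower in MEL (-0.81 ± 0.08, adjusted p = 0.000176). It was the member with the largest fall. Pfkfb4 did not pass (-0.21, 95% interval -0.40 to -0.03, adjusted p = 0.0539), but passed as lower under quantile normalization (limma, adjusted p = 0.0143) and with dim features left out (0.0290). Tigar, a phosphatase that breaks the activator down, was higher, at 6.92 and 6.76 in MEL against 6.36 and 6.33 in ES-EP cells (0.50 ± 0.09, adjusted p = 0.00304).

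The aldolase genes and the genes of the 2 next measured enzymes all passed as higher in MEL. Aldoa, the aldolase of muscle and red cells, had values of 13.02 and 12.97 in MEL, against 12.21 and 12.20 in ES-EP cells (0.79 ± 0.08, 1.73-fold, adjusted p = 0.000169). Aldoc, the brain-type aldolase, had values of 8.05 and 8.08 in MEL, against 6.44 and 6.39 in ES-EP cells, 3.13-fold higher in MEL (adjusted p = 4.36e-06). No ES-EP value of either gene reached a MEL value. Tpi1, the triose phosphate isomerase, had values of 12.69 and 12.66 in MEL, against 11.57 and 11.53 in ES-EP cells (2.17-fold, adjusted p = 2.86e-05). Pgk1, which makes the first ATP of the payoff phase, had values of 13.03 and 12.98 in MEL, against 11.73 and 11.73 in ES-EP cells (2.42-fold, adjusted p = 1.51e-05). These 2 steps have a single gene each on the list. Of the 3 features of Pgk1, a pair gave identical values and counts as a single measurement. The third gave a log2 difference of 1.29, and whether it shares probes with the pair was not tested.

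Pgam1, the phosphoglycerate mutase of most tissues, had values of 11.81 and 11.80 in MEL, against 10.17 and 10.18 in ES-EP cells (1.63 ± 0.08, 3.10-fold, adjusted p = 4.24e-06). Its other features, again a pair with identical values, differed by 1.47. Pgam2, the muscle isozyme, was dim and went the other way, at 5.42 and 5.54 in MEL against 5.90 and 5.66 in ES-EP cells (-0.30 ± 0.11, adjusted p = 0.0474), and it passed in 5 of 13 alternative settings only. Eno2, the enolase known from neurons, had the largest difference of all members. Its values were 8.11 and 8.23 in MEL, against 5.21 and 5.22 in ES-EP cells, 7.72-fold higher in MEL (2.95 ± 0.09, adjusted p = 3.84e-07), and the ES-EP values lay under the median of all features. Eno3, the muscle enolase, did not pass (-0.10, 95% interval -0.29 to 0.09, adjusted p = 0.323), and passed as lower under quantile normalization (-0.27, limma, adjusted p = 0.0176).

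Of the pyruvate kinase genes, Pkm passed and Pklr did not. Pkm, whose transcript is spliced into the M1 and M2 forms, had values of 12.22 and 12.18 in MEL, against 11.17 and 11.20 in ES-EP cells (1.01 ± 0.08, 2.02-fold, adjusted p = 4.74e-05). Its second feature was also higher in MEL, by 0.94 ± 0.08 or 1.92-fold (adjusted p = 6.85e-05), just under 2-fold. Pklr, which encodes the liver and red cell isozymes and is the usual pyruvate kinase of the red cell, had values of 11.28 and 11.31 in MEL, against 11.12 and 11.20 in ES-EP cells. That difference did not pass (0.13, 95% interval -0.06 to 0.33, adjusted p = 0.205), though it did in 3 of 14 alternative settings.

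At the lactate step Ldha and Slc16a3 passed as higher. Ldha, which encodes the subunit that favours lactate formation, had values of 13.09 and 13.08 in MEL, against 12.32 and 12.27 in ES-EP cells (0.79 ± 0.08, 1.72-fold, adjusted p = 0.000174). Ldhb, the heart-type subunit, was dim on both of its features, which disagreed. The brighter lay at 5.68 and 5.02 in MEL, against 5.03 and 4.64 in ES-EP cells, with overlapping groups (0.52 ± 0.22, adjusted p = 0.0801). The other lay at 4.60 and 4.51 in MEL, against 5.25 and 5.36 in ES-EP cells, and passed as lower (-0.75 ± 0.09, adjusted p = 0.000341). No direction is therefore given for Ldhb. It passed in 8 of 13 alternative settings, as lower only on that other feature and as higher in the rest.

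Slc16a3 had values of 11.53 and 11.61 in MEL, against 10.35 and 10.36 in ES-EP cells (1.21 ± 0.08, 2.32-fold, adjusted p = 2.19e-05). Its product MCT4 is known for lactate export from glycolytic cells. Slc16a1, whose product MCT1 carries lactate and pyruvate in most tissues, had values of 11.11 and 11.20 in MEL, against 11.12 and 11.13 in ES-EP cells. These values overlapped (0.03, 95% interval -0.17 to 0.23, adjusted p = 0.783).

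**Figure D2:**
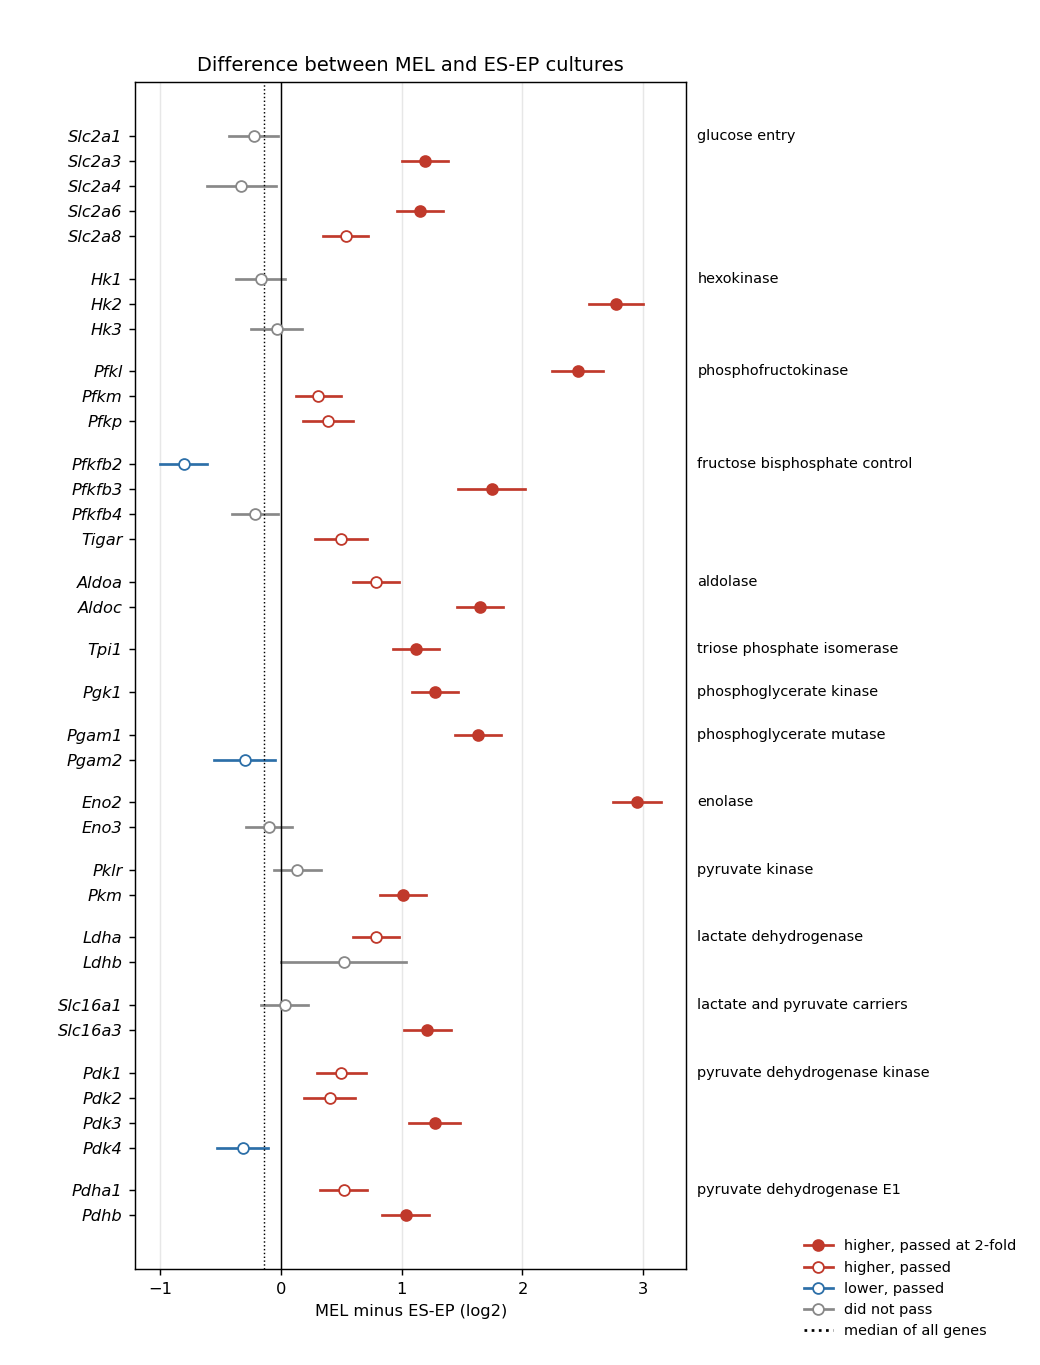
Difference of MEL minus ES-EP (log2, horizontal axis) of the 35 measured genes with its 95% interval from the limma fit, 2 arrays per group. Filled red points passed as higher at 2-fold or more, open red ones passed as higher, open blue ones as lower, and grey ones did not pass. The dotted line is the median of all genes at -0.14. Eno2 at 2.95, Hk2 at 2.77 and Pfkl at 2.46 lie furthest to the right.

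At the mitochondrial branch 3 of the 4 pyruvate dehydrogenase kinase genes and both E1 subunit genes of the enzyme passed as higher in MEL, and Pdk4 passed as lower. Pdk3, a kinase that inactivates the enzyme, had values of 11.21 and 11.36 in MEL, against 9.99 and 10.04 in ES-EP cells (1.27 ± 0.09, 2.41-fold, adjusted p = 2.66e-05). Pdk1, a known target of hypoxia-inducible factors, was higher by 0.50 ± 0.09 (adjusted p = 0.00220) and Pdk2 by 0.40 ± 0.09 (adjusted p = 0.00736). Pdk4, the kinase induced by fasting in muscle, was dim, at 4.60 and 4.46 in MEL against 4.86 and 4.84 in ES-EP cells. It passed as lower (-0.32 ± 0.09, adjusted p = 0.0182). Its difference shrank to -0.09 under quantile normalization and -0.10 under cyclic loess, and did not pass there (limma, adjusted p = 0.292 and 0.256), nor after median centring (-0.25, adjusted p = 0.0930). Without ES-EP culture A or B it was -0.31 and -0.33, about as large, and without MEL culture B it was -0.25, and none of these 3 passed (limma, adjusted p = 0.103, 0.0784 and 0.0555). The E1 component, which takes the carboxyl group off pyruvate, has an alpha subunit encoded by Pdha1 and a beta subunit encoded by Pdhb. Pdhb had values of 11.24 and 11.28 in MEL, against 10.26 and 10.20 in ES-EP cells (1.03 ± 0.08, 2.04-fold, adjusted p = 4.59e-05). Pdha1 was higher by 0.52 ± 0.08 (adjusted p = 0.00157).

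Genes of 1 step were set against each other as their log2 ratio within each array. Most pairs are isozymes or carriers of 1 family, but 3 pairs hold Tigar beside a Pfkfb gene and 1 pair holds both E1 subunits. The level of such a ratio depends on the probes and is not interpreted, and the shift between the groups is given. All 35 pairs within the 12 steps with several measured genes were computed, and the groups did not overlap in 29 of them (82.9%), or in 25 of 31 (80.6%) without the Tigar and E1 pairs. Over all pairs of genes on the array the groups did not overlap in 80.7%, so the count shows nothing particular to these pairs. The direction is fixed by writing the gene with the larger difference first. An exact permutation test of 4 arrays cannot give a two-sided p under 0.333, which all 29 reached (0.402 after Benjamini-Hochberg adjustment over the 35 pairs), so no pair is called. The ratio of Eno2 to Eno3 was higher in MEL by 3.05 on the log2 scale, that of Hk2 to Hk1 by 2.94 (2.72 with the other Hk1 feature), and that of Pfkfb3 to Pfkfb2 by 2.55. Pfkl to Pfkm shifted by 2.15 and Pfkl to Pfkp by 2.07, while Pfkp to Pfkm differed by 0.08 with overlapping groups. Slc2a3 to Slc2a1 shifted by 1.42, Slc16a3 to Slc16a1 by 1.18 and Pkm to Pklr by 0.88. Slc2a3 and Slc2a6, both higher in MEL, kept their ratio within 0.04, and Ldha to Ldhb overlapped as well.

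**Figure D3:**
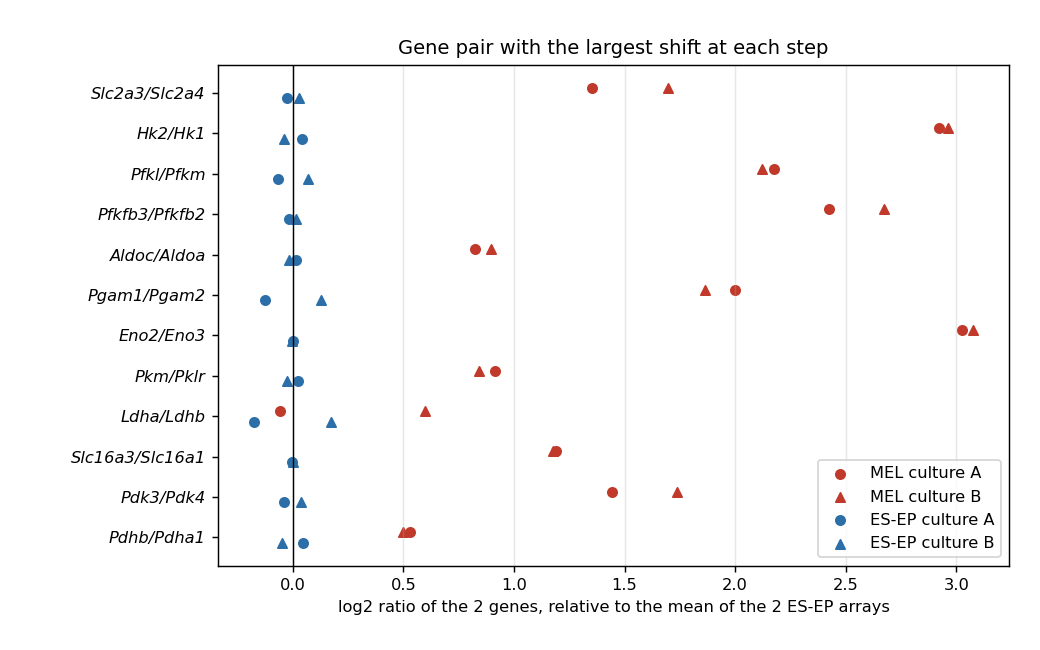
Log2 ratio of 2 genes of 1 step in each array (horizontal axis), set to the mean of the 2 ES-EP arrays, for the pair with the largest shift at each of the 12 steps. Red points are MEL and blue points ES-EP cultures, circles A and triangles B. The MEL points lie between 0.50 and 3.08 to the right for all pairs but Ldha and Ldhb, whose groups overlap. The side is fixed by writing the gene with the larger difference first.

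The background for the lists next to glycolysis is again 21.8% of all genes higher and 36.9% lower. In several lists the count of lower genes was close to that share, given their few genes. These were further isozymes, hexose carriers, monocarboxylate carriers, pyruvate entry and NADH shuttles. Glycogen metabolism had 10 of 16 measured genes pass as higher, the NADH shuttles 4 of 9 and the tricarboxylic acid cycle 5 of 15. Each remaining list had at most 1. Of 8 measured further isozymes, 0 passed as higher (limma, and 0 at an unadjusted p under 0.05) and 3 as lower. The largest fall among these was that of Bpgm, which diverts an intermediate to 2,3-bisphosphoglycerate in red cells, with 8.04 and 8.19 in MEL against 10.39 and 10.42 in ES-EP cells (-2.29 ± 0.09, adjusted p = 1.38e-06). Among 8 further hexose carriers 1 passed as higher and 3 as lower, led by the fructose carrier Slc2a5 (0.56 ± 0.11) and by Slc2a9, a urate carrier (-0.43 ± 0.10). Among 9 further monocarboxylate carriers and their chaperones 1 passed as higher, the MCT chaperone Bsg (0.39 ± 0.08), and 4 as lower, Slc16a6 the most (-1.95 ± 0.08).

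Downstream of pyruvate the counts were mixed, beside the same 21.8% of all genes higher and 36.9% lower. In the list of pyruvate entry and the rest of the dehydrogenase complex 1 of 8 passed as higher and 3 as lower. Dlat, the E2 subunit of the complex, was higher by 0.84 ± 0.10 (adjusted p = 0.000295), and Pcx, which carboxylates pyruvate instead, had 8.02 and 8.14 in MEL against 9.73 and 9.74 in ES-EP cells (-1.66 ± 0.09, adjusted p = 5.43e-06). Pdhx, another subunit of the complex, named after its value was seen, had 8.50 and 8.59 in MEL against 9.41 and 9.35 in ES-EP cells and passed as lower (-0.83 ± 0.09, adjusted p = 0.000170). Of 15 genes of the tricarboxylic acid cycle 5 passed as higher and 2 as lower, with Sdha at 0.93 ± 0.08 and citrate synthase, Cs, at -0.64 ± 0.08. None passed at 2-fold (limma, and 0 at 2-fold with an unadjusted p under 0.05). The shares of all genes at 2-fold were 7.38% higher and 4.93% lower, so few would be counted among 15 genes. Of 6 gluconeogenic enzymes 1 passed as higher, G6pc3 (1.40 ± 0.11), and 1 as lower, the dim G6pc (-0.92 ± 0.10).

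The carriers and enzymes that pass cytosolic NADH to the mitochondrion had 4 higher and 4 lower genes among 9. Over all genes the shares were 21.8% higher and 36.9% lower. Slc25a13, the aspartate and glutamate carrier citrin, had values of 8.49 and 8.64 in MEL, against 5.18 and 4.91 in ES-EP cells (3.52 ± 0.11, 11.4-fold, adjusted p = 6.14e-07), and Gpd1l was 2.51-fold lower in MEL. The ES-EP values of Slc25a13 and the MEL values of Gpd1l lay under the median of all features. Glycogen metabolism had 10 genes higher and 1 lower among 16. At 2-fold or more 7 were higher and 0 lower (limma, and 0 lower at an unadjusted p under 0.05). The shares of all genes at 2-fold were 7.38% higher and 4.93% lower, so among so few genes 0 lower is close to the background. The median difference was 0.65, or 0.79 relative to all genes. Pgm1, the phosphoglucomutase that joins glycogen to glycolysis, had values of 9.44 and 9.49 in MEL, against 6.13 and 6.05 in ES-EP cells (3.37 ± 0.08, 10.4-fold, adjusted p = 2.06e-07). Phkb, a subunit of phosphorylase kinase, was the gene that passed as lower (-0.35 ± 0.09, adjusted p = 0.0137).

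**Figure D4:**
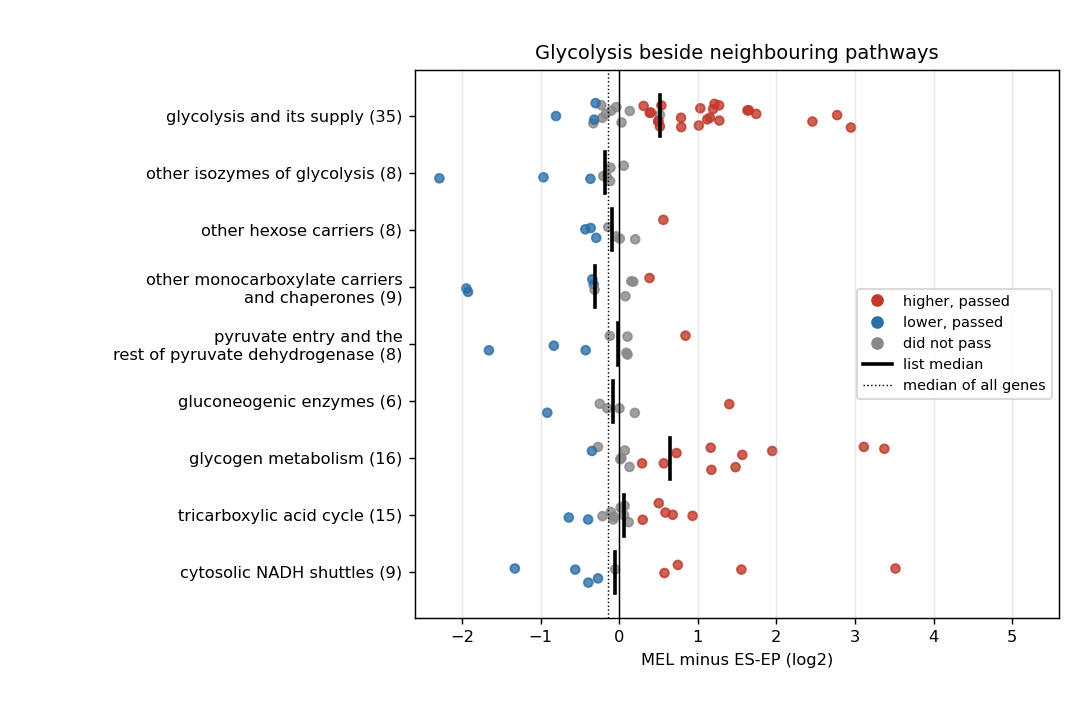
Difference of MEL minus ES-EP (log2, horizontal axis) of each measured gene in the glycolysis list and in 8 neighbouring lists, with the number of genes in brackets. Red points passed as higher, blue as lower, grey did not pass, the bar is the list's median and the dotted line the median of all genes. The medians of glycolysis (0.52) and of glycogen metabolism (0.65) lie to the right of the other 7.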

How the data were processed

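The authors deposited log2 expression values from RMA in GeneSpring GX, per the labels. Version, filters and which arrays were normalized jointly: not stated there. RMA draws the distributions of the arrays together, and dim features keep a floor that understates folds. The table has no detection calls. Of 35557 features, 6613 with consecutive low numbers and no annotation were taken as control features and left out. Features annotated to 1 gene were named through Entrez identifiers (RefSeq, GRCm38.p6), and the brightest represented a gene.

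Differences were fitted in R 4.3.3 by limma 3.58.1 (lmFit, eBayes, Benjamini-Hochberg over 28944 features, 2 residual and 5.15 prior degrees of freedom). The design text calls the cultures duplicates without saying more, so a p-value covers the spread of these duplicates alone, which may be technical, and the number of arrays limits the precision. The procedure was tested on simulated data. Members and lists were chosen with earlier results of these data known. Array values are given for members passing at 2-fold and for the largest difference of each step, and the largest passing rise and fall of each other list are named. Motifs were searched in RefSeq promoters. The alternatives were 3 scalings, 2 priors, a filter on dim features, features with 1 gene only, the mean of a gene's features, the replicate block and each culture left out. A further one, the feature with the most accessions, was chosen after seeing the data.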

Additional observations from a re-analysis of the deposited data

How the results depend on the processing

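The 14 genes at least 2-fold higher in MEL passed as higher in all 14 alternative settings, with a lowest log2 difference of 0.94 (Pkm on its second feature). Of the 26 genes that passed, 22 passed in every setting; Pfkm, Pfkp, Pgam2 and Pdk4 did not. The count of higher genes ran from 22 to 25. The count of lower genes was 3 as deposited, 1 after median centring and after cyclic loess, and 5 with an intensity trend, and it ran from 1 to 3 with 1 culture left out (1 without MEL culture B or ES-EP culture A). The median difference of 0.52 was 0.63 under quantile normalization, 0.63 under cyclic loess, and 0.79 (0.83 relative to all genes) with dim features left out. The median over all genes was -0.14 as deposited and 0.017 under cyclic loess. Hk3 turned positive after quantile normalization (0.16), centring (0.028), cyclic loess (0.18) and without MEL culture B (0.043). Slc16a1 was -0.020 without MEL culture B and 0.078 without MEL culture A. Over the 14 alternative settings the Slc16a1 difference ran from that -0.020 to 0.16 under quantile normalization. Ldhb was -0.12 as the mean of its features and -0.75, and Hk1 0.057, on the feature with the most accessions. After median centring limma estimated infinite prior degrees of freedom, so all features shared 1 variance there and a gene with a wide spread, such as Ldhb, could pass. Beyond these constructions the cause was not tested. The replicate letters mark no stated pairing (correlation of same-lettered deviations 0.11); with the replicate block 24 genes were higher and 3 lower. Glycogen genes passing as higher numbered 9 to 12. Dim members (Hk3, Pgam2, Ldhb, Pdk4) are limited by their low signal.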

Other observations

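Most enzymes of glycogen synthesis and breakdown had higher RNA levels in MEL than in ES-EP cells. The genes named in this paragraph were picked after their values were seen. Phka1, a regulatory subunit of phosphorylase kinase, had values of 8.36 and 8.59 in MEL, against 5.38 and 5.34 in ES-EP cells (a log2 difference of 3.11 with an SE of 0.10 over 2 arrays a group, 8.65-fold, limma adjusted p = 6.10e-07). Its ES-EP values lay under the median of all features. Both phosphorylase genes with clear signal, Pygb and Pygl, which release glucose 1-phosphate from glycogen, were 3.86-fold and 2.96-fold higher. On the synthetic side the glycogen synthase Gys1 was 2.25-fold, the branching enzyme Gbe1 2.24-fold and glycogenin, Gyg, which starts the chain, 2.79-fold higher. Ugp2, also of the glycogen list, went the other way (-0.27) and did not pass (limma, adjusted p = 0.0579). The muscle phosphorylase Pygm (0.07) and the liver synthase Gys2 (0.13) were dim and did not pass. Glycogen itself was not measured.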
